A study of Homo sapiens with 8 samples.

Results

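The imprinted DLK1-DIO3 region on chromosome 14 (14q32) holds one of the densest groups of miRNA genes in the human genome, and its miRNAs were read out here from small RNA libraries of 786O, a clear cell renal cell carcinoma (ccRCC) line. Members were taken by name: every miRNA in the count table whose hsa-miR- number was on a list of 49 numbers known from the cluster, with any arm (5p or 3p) and any locus suffix. This gave 81 mature miRNAs of 45 numbers, out of 1482 known miRNAs and 3112 entries in all, the other 1630 being predicted miRNAs. No entry carried miR-300, miR-541, miR-770 or miR-1193, which were not analysed here.

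The comparison was between 4 libraries of cells that received a negative control plasmid (NC) and 4 libraries of cells that received circSOD2-sh, a short hairpin RNA against circSOD2, a circular RNA from the SOD2 gene. The labels gave transfection with Lipofectamine 3000 and total RNA after 48 hours, whereas the methods of the study described lentiviral delivery with selection, and neither named the hairpin used. All 8 libraries came from the same line, and nothing in the labels said whether replicates were separate cultures, so every p-value below measures only the spread between these libraries, which may be technical. circSOD2 itself is too long for a small RNA library and was not measured, so the labels could not be checked against the target.

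The region is imprinted: DLK1, RTL1 and DIO3 are protein-coding genes used from the paternal chromosome, while MEG3, MEG8, MEG9 and the miRNAs are non-coding and used from the maternal one. The miRNA hairpins lie on the same strand as the MEG RNAs and are thought to be cut from long transcripts, and each hairpin can give a 5p and a 3p mature miRNA. The cluster is known for high levels in brain, placenta and embryonic tissue and for lower levels in most adult epithelia. A miRNA chooses its target messages mainly through its seed, so members with one seed are expected to share targets.

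The hairpins of the 81 members were located in GENCODE 29 (GRCh38) at 48 genes, all on the plus strand of chromosome 14, from the start of MIR493 at 100869060 to the end of MIR656 at 101066801, a span of 197.7 kb. They fell into an upstream block of 9 hairpin genes from MIR493 to MIR370, which spanned 42.2 kb and held 15 members, and a downstream block from MIR379 to MIR656, which spanned 44.7 kb and held 66 members. The blocks were 110.9 kb apart. In the upstream block MIR431, MIR433, MIR127, MIR432 and MIR136 lay inside RTL1, which runs on the minus strand, so that these hairpins were antisense to it, and MIR370 lay inside MEG8. In the downstream block the hairpins from MIR379 to MIR495 lay inside MEG8, those from MIR381 to MIR655 inside MIR381HG, and those from MIR409 to MIR656 inside MEG9.

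RefSeq (GRCh38.p14) gave a mature sequence for 80 of the 81 members. The sequences below are those on which the results turned, written 5′ to 3′ with the seed (bases 2 to 8) in capitals. The first set is shown because it took most of the cluster's counts in circSOD2-sh replicate 2, the library that stood apart:
miR-127-3p: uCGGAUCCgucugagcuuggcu
miR-136-3p: cAUCAUCGucucaaaugagucu
miR-370-3p: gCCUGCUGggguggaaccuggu
miR-433-3p: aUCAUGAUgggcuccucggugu
miR-381-3p: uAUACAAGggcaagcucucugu

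The second set holds the 3 members called higher in circSOD2-sh under every alternative that gave them an adjusted p, with the other arm of miR-409 and with miR-362-3p, which lies outside the cluster, on chromosome X, and has the seed of miR-329-3p:
miR-409-5p: aGGUUACCcgagcaacuuugcau
miR-409-3p: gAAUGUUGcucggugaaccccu
miR-380-3p: uAUGUAAUaugguccacaucuu
miR-329-3p: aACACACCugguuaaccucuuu
miR-362-3p: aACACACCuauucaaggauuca

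The last set holds miR-494-3p, the most abundant member in the control cells, miR-654-3p, whose mean level there was close to that of miR-758-3p and miR-889-3p, and a pair whose reads could not be told apart:
miR-494-3p: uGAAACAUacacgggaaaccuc
miR-654-3p: uAUGUCUGcugaccaucaccuu
miR-376b-5p: cGUGGAUAuuccuucuauguuu
miR-376c-5p: gGUGGAUAuuccuucuauguu

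Total counts ranged from 6386872 to 9245044 in NC and from 3743860 to 4208276 in circSOD2-sh. Known miRNAs supplied 36.2 to 41.9% of each NC library but 95.1 to 96.5% of each circSOD2-sh library, the remainder being predicted miRNAs, so that the level of any member depended on how the libraries were scaled. Levels are given in scaled CPM, in which each library size was scaled by the trimmed mean of M values (TMM) over all miRNAs. Scaling by totals alone, without TMM, moved the median over every miRNA tested from 0.00 to 0.96 on the log2 fold change scale. A count of 0 allowed a level of up to 3 counts, equal to 0.46 to 0.674 scaled CPM for NC libraries and 0.509 to 0.601 for the circSOD2-sh ones.

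The cluster was a small part of the small RNA of these cells. Its 81 members together took 0.0390 to 0.0428% of the known miRNA counts in NC, 0.0356 to 0.0377% in circSOD2-sh replicates 1, 3 and 4, and 0.249% in circSOD2-sh replicate 2. The summed level was 217.8, 220.1, 222.8 and 225.4 scaled CPM in NC replicates 1 to 4, or 221.5 ± 3.33 (SD, n = 4). In circSOD2-sh replicates 1 to 4 it was 228, 1786, 273 and 243 scaled CPM, or 632 ± 769 (SD, n = 4), and 248 ± 22.6 (SD, n = 3) without replicate 2.

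On this scale replicate 2 lay far above the NC range and the other circSOD2-sh libraries just above it, a small difference that did not hold throughout. With TMM refitted without replicate 2, the sums were 212.7 to 221.6 scaled CPM in NC and 213.98, 241.7 and 226.7 in circSOD2-sh replicates 1, 3 and 4, so that replicate 1 was inside the NC range. With miR-409-5p left out of the sum on the scaling of all 8 libraries, NC was at 215.6 to 223.4, replicate 1 was below every NC library at 212.4, replicate 3 was at 247.2 and replicate 4 was inside the NC range. Its direction also rested on the scaling: replicates 1, 3 and 4 were above every NC library in scaled CPM and below every NC library in the share of known counts. These are totals of bulk RNA, in which fewer cells of a kind and less RNA per cell cannot be told apart.

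**Figure D1:**
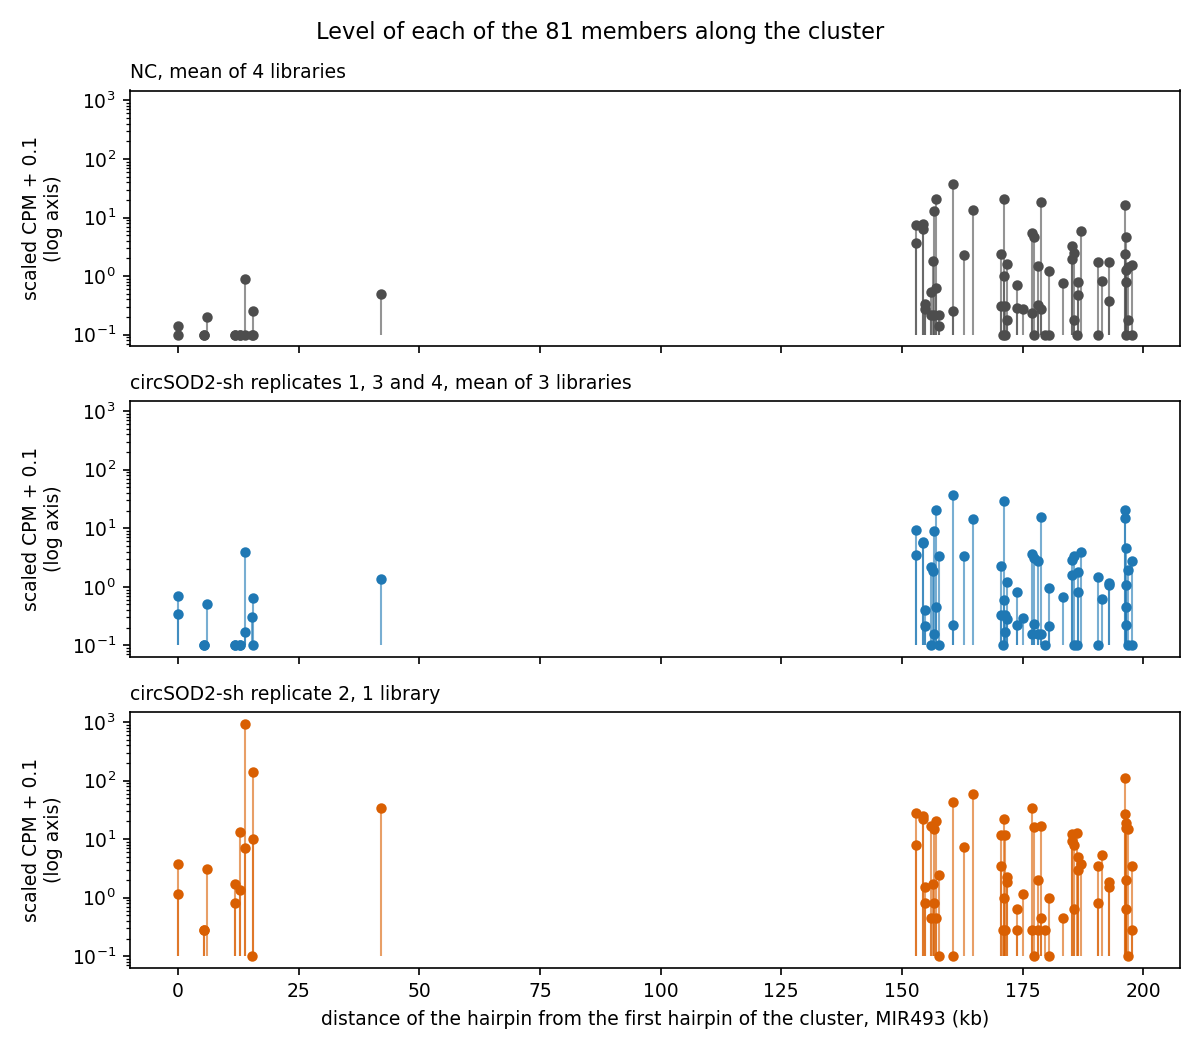
Level of each of the 81 members (vertical, scaled CPM plus 0.1 on a log axis) against the distance of its hairpin from MIR493 in kb (horizontal), for the mean of the 4 NC libraries, the mean of circSOD2-sh replicates 1, 3 and 4, and circSOD2-sh replicate 2 alone. The upstream block, from 0 to 42.1 kb, is close to the floor in NC and holds the highest point, miR-127-3p, in circSOD2-sh replicate 2.

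The 2 blocks of the cluster differed in level. In NC the upstream block summed to 1.69, 1.23, 0.681 and 2.25 scaled CPM, from 11, 8, 4 and 10 counts, while the downstream block summed to 216.1, 218.9, 222.2 and 223.2 scaled CPM. In circSOD2-sh the upstream block summed to 1.19, 1151, 14.8 and 5.33 scaled CPM and the downstream block to 227, 635, 258 and 237. The upstream block was thus near the counting limit in NC and in circSOD2-sh replicate 1, and it took 64.4% of the cluster's counts in replicate 2, 5.44% in replicate 3 and 2.20% in replicate 4, against 0.306 to 0.996% in NC.

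Between 50 and 53 members had a count in the NC libraries, and 51, 75, 55 and 54 in circSOD2-sh replicates 1 to 4. At least 10 counts were reached by 20 to 27 members in NC and by 25, 46, 28 and 27 in circSOD2-sh. No upstream member reached 10 counts in any NC library. A total of 19 members were at 0 in all 4 NC libraries, and 12 of the 81 were counted in circSOD2-sh replicate 2 alone of the 8 libraries. Among those 12, miR-337-5p, miR-337-3p, miR-376a-2-5p, miR-544a and miR-656-5p had 1 count each.

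In the control cells the level was carried by a few downstream members, mostly 3p arms. miR-494-3p was the most abundant, at 35.7, 36.6, 43.8 and 33.7 scaled CPM in NC and 29.9, 43.4, 40.7 and 40.7 in circSOD2-sh. miR-654-3p was at 21.1, 18.9, 21.3 and 22.7 in NC and 29.7, 21.9, 25.9 and 31.5 in circSOD2-sh. miR-758-3p was at 20.1, 19.8, 18.4 and 24.0 in NC and 18.2, 20.3, 22.5 and 20.8 in circSOD2-sh.

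The groups overlapped for miR-494-3p, miR-654-3p and miR-758-3p, and circSOD2-sh replicate 2 was within the range of the other libraries for all of them. miR-889-3p came next in NC, at 17.01, 18.8, 18.9 and 19.8 scaled CPM against 15.5, 16.8, 15.2 and 16.5 in circSOD2-sh, and miR-409-3p followed with 16.0 ± 1.1 (SD, n = 4) in NC. The mean levels of miR-758-3p, miR-654-3p and miR-889-3p in NC were close, at 20.6 ± 2.41, 21.0 ± 1.56 and 18.6 ± 1.15 scaled CPM (SD, n = 4), and were not tested against each other. Within libraries, miR-654-3p was above miR-889-3p in each NC library. Below them stood miR-495-3p (13.4 ± 2.51), miR-323a-3p (12.7 ± 1.47), miR-411-3p (7.55 ± 0.58) and miR-379-5p (7.20 ± 1.1). Mature miRNAs are of nearly equal length, so these levels were compared without a length correction, but ligation and mapping differ between sequences.

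**Figure D2:**
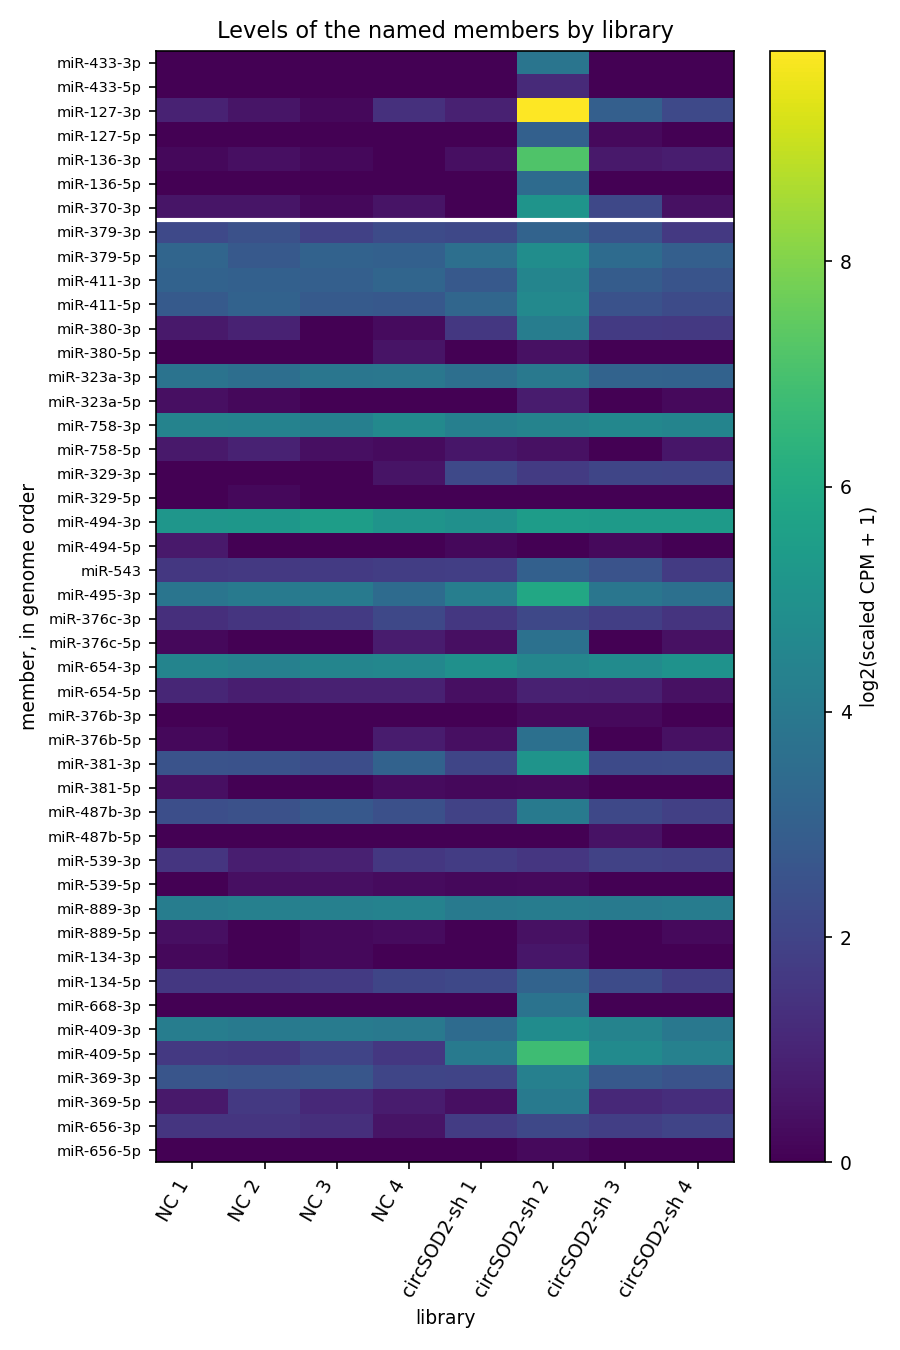
Level of the 46 named members (vertical, in genome order, with a white line between the upstream and the downstream block) in each of the 8 libraries (horizontal), coloured by log2(scaled CPM + 1). The upstream members are brightest in circSOD2-sh replicate 2, and miR-409-5p is brighter in all 4 circSOD2-sh libraries than in NC.

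Whether the knockdown libraries differed from the controls was tested with edgeR on the counts of all 3112 entries, and the members were read out of that fit. A filter on low counts left 27 members to test, all of them downstream. The other 54, all 15 upstream members and 39 of the 66 downstream ones, were not tested, and their values are descriptions. With all 8 libraries, 8 of the 27 members (29.6%) had an adjusted p under 0.05. The share was 65.7% of the 895 miRNAs tested and 55.5% of the 463 known ones among them. All 8 were higher in circSOD2-sh, where the share over all tested miRNAs was 33.3%, and 0 were lower, where that share was 32.4%.

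The groups did not overlap for 5 of the 27 members, against 60.3% of all tested miRNAs. Most of the miRNAs tested were called in this comparison, and the share of members was below that background, a difference that was not tested. The median log2 fold change of the 27 members was 0.70, beside 0.00 for all tested miRNAs and −0.11 for the 463 known ones tested, and circSOD2-sh replicate 2 set the median of the members.

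Without that library, 8 of 27 members were again called, against 68.2% of 969 miRNAs tested and 62% of the 490 known ones. Of the 8 members, 4 were higher, against a share of 31.3% over all tested and 23.9% over the known ones. The other 4 were lower, against 36.9 and 38.2%. The groups did not overlap for 10 of the 27, against 65.9%. The median log2 fold change of the members fell to −0.12, beside −0.15 for all tested miRNAs and −0.26 for the known ones. The calls with and without the library had 4 members in common, miR-329-3p, miR-380-3p, miR-409-5p and miR-654-3p, all higher in circSOD2-sh. Of these, all but miR-654-3p again passed the filter through their circSOD2-sh libraries.

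**Figure D3:**
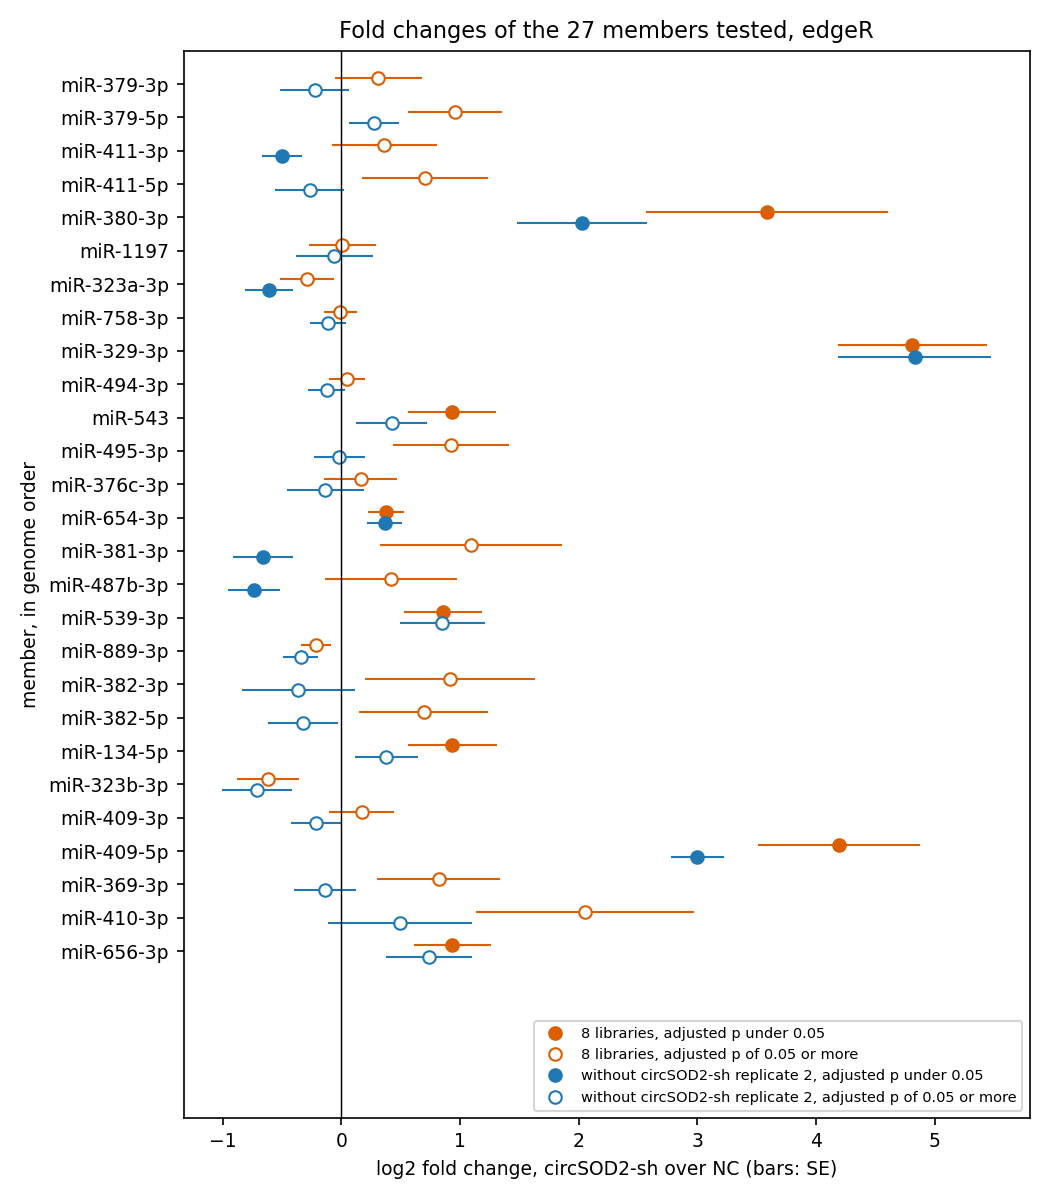
Log2 fold change of circSOD2-sh over NC (horizontal, with SE bars) for the 27 members tested (vertical, in genome order), from edgeR with all 8 libraries (orange) and without circSOD2-sh replicate 2 (blue). Filled points have an adjusted p under 0.05. miR-329-3p (4.81 and 4.83), miR-409-5p (4.20 and 3.0) and miR-380-3p (3.59 and 2.03) lie apart from the rest, and several orange points lie to the right of 0 where the blue ones do not.

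miR-409-5p, cut from the hairpin near the downstream end of the cluster inside MEG9 (GRCh38, chr14:101065314-101065336, plus strand), was called in both fits. Its level was 2.15, 2.0, 3.07 and 2.02 scaled CPM in NC and 16.0, 110, 25.5 and 19.2 in circSOD2-sh. Every circSOD2-sh library was above every NC library. The log2 fold change was 4.20 (SE 0.68, adjusted p = 0.000418, edgeR) with all 8 libraries and 3.0 (SE 0.23, adjusted p = 7.41e-07, edgeR) without replicate 2. Over 20 alternative settings the adjusted p ran from 1.04e-08 to 0.00283.

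The other arm of the same hairpin, miR-409-3p, did not show this difference. It was at 17.3, 15.4, 16.4 and 14.8 scaled CPM in NC and at 10.0, 27.2, 20.2 and 14.6 in circSOD2-sh, and the groups overlapped. Its log2 fold change was 0.17 (SE 0.27, adjusted p = 0.593, edgeR) with all libraries and −0.21 (SE 0.21, adjusted p = 0.390, edgeR) without replicate 2. Both arms come from one precursor and were counted in the same libraries, so their ratio did not depend on the scaling.

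The 5p arm took 11.0, 11.5, 15.8 and 12% of the counts of both arms in NC, or 12.6 ± 2.18 (SD, n = 4). In circSOD2-sh it took 61.4, 80.2, 55.7 and 56.8%, or 63.6 ± 11.4 (SD, n = 4). The more abundant arm was therefore 3p in every NC library and 5p in every circSOD2-sh library. Among the 14 hairpins with both arms in the table and at least 10 counts in every library, miR-409 was the only 1 whose shares did not overlap between the groups with all 8 libraries. For miR-654, whose 5p share in NC was 3.81 to 4.83% and in circSOD2-sh 1.12 to 3.88%, the ranges overlapped at their ends, as they did more widely for the remaining 12. Without replicate 2 the miR-654 share in circSOD2-sh was 1.12 to 3.01%, below every NC library. It rested on 7, 5, 5 and 4 counts of miR-654-5p in NC and 2, 4 and 2 in circSOD2-sh replicates 1, 3 and 4. In NC the 3p arm was the larger in every library for 10 of the 14 hairpins, and the 5p arm for 3, miR-134, miR-379 and miR-382.

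**Figure D4:**
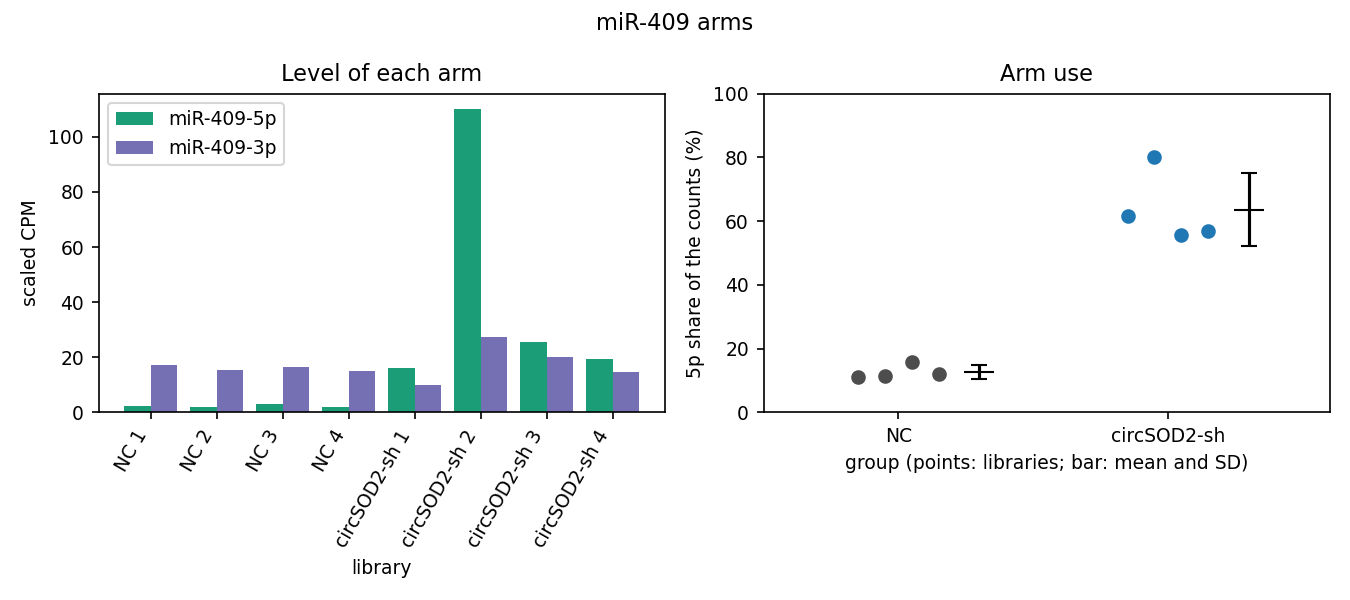
Left, level of miR-409-5p and miR-409-3p (vertical, scaled CPM) in each library; right, share of the 5p arm in the counts of both arms (vertical, %) by group, with 1 point per library and the mean and SD beside them. The 5p share is 11.0 to 15.8% in NC and 55.7 to 80.2% in circSOD2-sh.

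miR-329-3p, encoded by a tandem pair of hairpins inside MEG8, was nearly uncounted in the controls. It had 0, 0, 0 and 2 counts in NC libraries and 21, 13, 16 and 17 in circSOD2-sh, or 2.29 to 3.57 scaled CPM, and the groups did not overlap. The ratio of the summed counts per scaled library was 35.3, with an exact 95% interval of 9.39 to 297, and 38.2 (10.1 to 323) without replicate 2. These intervals cover counting error only, and reads without molecular identifiers are not independent molecules. edgeR gave an adjusted p of 8.03e-05 with all libraries and 7.85e-05 without replicate 2, and 5.38e-07 to 0.00152 over 19 alternative settings. With so few NC counts, its fitted log2 fold change of 4.81 depends on the prior count and is no bound. For this member replicate 2 was the lowest of the circSOD2-sh libraries.

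The seed of miR-329-3p, ACACACC, was found in 1 other known miRNA of the table, miR-362-3p. Both miRNAs start with the same 9 bases and are 22 bases long, as the sequences printed above show. miR-362-3p had 0, 0, 0 and 3 counts in NC and 46, 44, 29 and 30 in circSOD2-sh. Its counts followed the same order of groups, with both miRNAs at 0 in the same 3 NC libraries.

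miR-380-3p, from a hairpin 156 kb from the first one, also rose. It was at 0.613, 0.923, 0 and 0.225 scaled CPM in NC, from 11 counts in all, and at 2.04, 16.9, 2.21 and 2.13 in circSOD2-sh. Every circSOD2-sh library was above every NC library, and replicate 2 was 7.68 times the highest of the others. The log2 fold change was 3.59 (SE 1.02, adjusted p = 0.0113, edgeR) with replicate 2 and 2.03 (SE 0.55, adjusted p = 0.00841, edgeR) without it, and the adjusted p ran from 0.000258 to 0.036 over 18 alternative settings. DESeq2 with all libraries was not among these settings, as it gave no adjusted p for this member. Its low counts in NC leave the size of the change uncertain, and the ratio of summed counts without replicate 2 was 4.50, with an exact 95% interval of 2.23 to 9.83.

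The other 5 members called with all libraries changed less. miR-654-3p had a log2 fold change of 0.37 (SE 0.15, adjusted p = 0.0488, edgeR), which was 0.37 (adjusted p = 0.0467, edgeR) without replicate 2. It was called in 10 of 20 alternatives and in 1 of the 8 fits that left out a single library, and its log2 fold change was lowest without circSOD2-sh replicate 4, at 0.19 (adjusted p = 0.365, edgeR). miR-656-3p, the last hairpin of the cluster, was at 1.84, 1.85, 1.53 and 0.449 scaled CPM in NC and 2.38, 3.35, 2.61 and 3.02 in circSOD2-sh, with a log2 fold change of 0.93 (SE 0.33, adjusted p = 0.0284, edgeR). miR-134-5p (0.94, adjusted p = 0.0483, edgeR), miR-543 (0.93, adjusted p = 0.0488) and miR-539-3p (0.86, adjusted p = 0.0442) were at the edge of the threshold. Without replicate 2, miR-656-3p, miR-134-5p, miR-543 and miR-539-3p had log2 fold changes of 0.74, 0.38, 0.42 and 0.85 and adjusted p of 0.0963, 0.232, 0.228 and 0.0548 (edgeR), and were not called.

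The 4 members lower without replicate 2 all had their highest level in that library. miR-487b-3p was at 4.14, 4.46, 5.62 and 4.27 scaled CPM in NC and 2.89, 15.7, 3.41 and 2.67 in circSOD2-sh. miR-381-3p was at 4.75, 4.61, 4.09 and 7.63 in NC and 3.23, 33.9, 3.61 and 3.73 in circSOD2-sh. miR-411-3p was at 7.66, 7.23, 6.99 and 8.31 in NC and 5.77, 21.5, 6.41 and 4.98 in circSOD2-sh.

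In each of these members replicates 1, 3 and 4 lay below every NC library and replicate 2 above every NC library. Without replicate 2 the log2 fold changes were −0.74 (SE 0.22, adjusted p = 0.0134) for miR-487b-3p, −0.66 (SE 0.25, adjusted p = 0.0405) for miR-381-3p and −0.50 (SE 0.17, adjusted p = 0.0230) for miR-411-3p by edgeR. The fourth, miR-323a-3p, fell by 0.61 (SE 0.20, adjusted p = 0.0201, edgeR), with 12.4, 10.8, 13.8 and 13.9 scaled CPM in NC and 11.2, 14.8, 7.82 and 7.64 in circSOD2-sh. These decreases rested on the scaling: with library totals the same 4 members had log2 fold changes of 0.34 to 0.58 and with upper-quartile scaling of 0.29 to 0.53, where miR-411-3p was called higher (adjusted p = 0.0098 and 0.0197, edgeR). DESeq2 called 1 of the 4 lower, edgeR with RLE scaling 3 and edgeR with the replicate number as a block 2. With known miRNAs alone they stayed negative, at −0.46 to −0.24, with 0 of the 4 called by edgeR and a lowest adjusted p of 0.0967.

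circSOD2-sh replicate 2 differed from the other 3 circSOD2-sh libraries through most of the cluster. It was above all of them for 62 of the 81 members, 14 of 15 upstream and 48 of 66 downstream, and below all of them for 3. Some of the 62 rest on 1 count in replicate 2 and 0 in the others, such as miR-337-5p and miR-544a. The matching share over other known miRNAs was not taken, so the 62 has no background beside it. Of the 24 members with at least 10 counts in each of the other 3 libraries, 13 were over 2 times their median and 11 between 0.5 and 2 times, with a median ratio of 2.34 and a range of 0.715 to 9.39. Of 393 other known miRNAs with at least 10 counts in those libraries, 4.83% were over 2 times the median, and their median ratio was 1.05. With 1 library there is no test of these differences.

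The largest ratios were upstream, in the hairpins antisense to RTL1. miR-127-3p had 6, 3, 1 and 7 counts in NC and 5, 5296, 35 and 20 in circSOD2-sh, so that replicate 2 held 934 scaled CPM where the other 7 libraries held 0.170 to 7.02. This single miRNA made up 52.3% of the cluster's counts in replicate 2. miR-136-3p, from a hairpin 15.6 kb from the first one, had 1, 2, 1 and 0 counts in NC and 2, 797, 3 and 4 in circSOD2-sh.

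Relative to the other 3 circSOD2-sh libraries, replicate 2 was 257 times higher for miR-127-3p, with an exact 95% counting interval of 199.3 to 337.2, and 258 times higher for miR-136-3p (135 to 566). miR-370-3p, the last hairpin of the upstream block, had 3, 3, 1 and 2 counts in NC and 0, 192, 17 and 2 in circSOD2-sh, a ratio of 29.4 (18.3 to 49.9). miR-433-3p was at 0 in 7 libraries and had 75 counts in replicate 2, at least 22.0 times the level that 3 counts would give in the other circSOD2-sh libraries. miR-136-5p (57 counts, at least 16.7 times) and miR-668-3p of the downstream block (71 counts, at least 20.8 times) were likewise at 0 in the 7 other libraries.

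Counts of some upstream members were also above NC in circSOD2-sh replicate 3. It had 35 counts of miR-127-3p, 17 of miR-370-3p, 8 of miR-493-3p and 6 of miR-665, where NC libraries had at most 7, 3, 0 and 1. The upstream block reached 14.8 scaled CPM in this library, against 1.19 and 5.33 in replicates 1 and 4. miR-432-5p, with 3 counts in replicate 3 and 0 elsewhere, was the upstream member that replicate 2 did not hold.

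Downstream, replicate 2 stood out for some arms and not for others. miR-369-5p had 4, 14, 7 and 3 counts in NC and 2, 86, 6 and 8 in circSOD2-sh, a ratio of 15.6 (9.11 to 28.6) for replicate 2 over the other 3. miR-381-3p was 9.07 times, miR-410-3p 4.65 times, miR-409-5p 4.33 times and miR-495-3p 3.35 times the highest of the others. miR-494-3p (1.07 times) and miR-889-3p (1.01 times) were almost level with the highest of the others, and miR-654-3p (0.695 times) was below it.

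Thus the 4 most abundant members in NC, miR-494-3p, miR-654-3p, miR-758-3p and miR-889-3p, were at most 1.07 times the highest of the others in replicate 2. Over the 81 members, the correlation of log2(scaled CPM + 1) between libraries was 0.879 to 0.981 (Pearson) and 0.776 to 0.924 (Spearman) for the 21 pairs without replicate 2, and 0.553 to 0.688 and 0.598 to 0.746 for the 7 pairs with it. These are correlations across miRNAs of one cluster, which are not independent.

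Some members could not be separated by sequence. miR-376b-5p and miR-376c-5p differ at 1 position over 21 bases and share a seed, and their counts were equal in 7 of 8 libraries and differed by 1 in the other, with 66 and 67 counts in replicate 2, so that reads of one cannot be told from reads of the other. Each of these other pairs also shared a seed of its own: miR-376a-3p with miR-376b-3p, miR-154-3p with miR-487a-3p, miR-379-3p with miR-411-3p, miR-485-3p with miR-539-3p, miR-410-5p with miR-494-5p, and both miR-1185 3p forms. Within miR-379-3p and miR-411-3p, which differ at 2 of 22 positions, counts were equal in 0 libraries. miR-539-3p was called and miR-485-3p did not pass the filter.

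Other features of the libraries moved with these values. The 12 neural miRNAs listed, among them miR-124-3p and miR-9-5p, summed to 5362 scaled CPM in circSOD2-sh replicate 2, where replicates 1, 3 and 4 held 496 to 516 and NC held 540 to 581, and all 12 were above every other circSOD2-sh library. miR-124-3p alone, a miRNA of neurons, was at 3214 scaled CPM in replicate 2 and at 0.852 to 3.01 in the 7 others. The 8 miRNAs of stroma and smooth muscle summed to 320 in replicate 2, 59.5 in replicate 3 and 22.8 and 32.5 in replicates 1 and 4, and 8 of 8 were above every other circSOD2-sh library in replicate 2.

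For the next lists, brackets give how many miRNAs were higher in replicate 2 than in every other circSOD2-sh library. Endothelial miRNAs (2 of 2) summed to 511 in replicate 2 against 262 to 290 in those libraries, erythroid ones (4 of 4) to 59.8 against 21.6 to 31.3, leukocyte ones (2 of 4) to 14.6 against 2.13 to 3.21 and kidney tubule ones (4 of 5, with miR-211-5p on 1 count) to 349 against 300 to 309. The kidney tubule sum of replicate 2 was below that of every NC library. Within that list miR-204-5p was at 28.9 scaled CPM in replicate 2 and at 1.24 to 1.53 in the other circSOD2-sh libraries. miR-192-5p was at 281 against 268 to 275 and miR-194-5p at 29.1 against 20.7 to 22.4, while miR-215-5p was inside the range of those libraries. Muscle miRNAs (2 of 4) summed to 19.6 and liver ones (0 of 1) to 2.29, inside the 10.7 to 30.4 and 1.36 to 2.49 of the other circSOD2-sh libraries. NC replicate 4 also carried more of these lists, with 769 for stroma and smooth muscle against 22.3 to 23.6 in the other NC libraries, 650 against 334 to 348 for endothelium and 1064 against 375 to 399 for kidney tubule, but its neural miRNAs were within the NC range and its cluster sum was 225 scaled CPM. No list had a member at 0 in all libraries. The part of these miRNAs in the levels of the cluster was not tested. miR-210-3p, a hypoxia miRNA that is high in ccRCC lacking VHL, was counted in all 8 libraries. It was at 19.9 to 26.97 scaled CPM in NC, 13.9 to 15.3 in circSOD2-sh replicates 1, 3 and 4, and 19.8 in replicate 2.

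**Figure D5:**
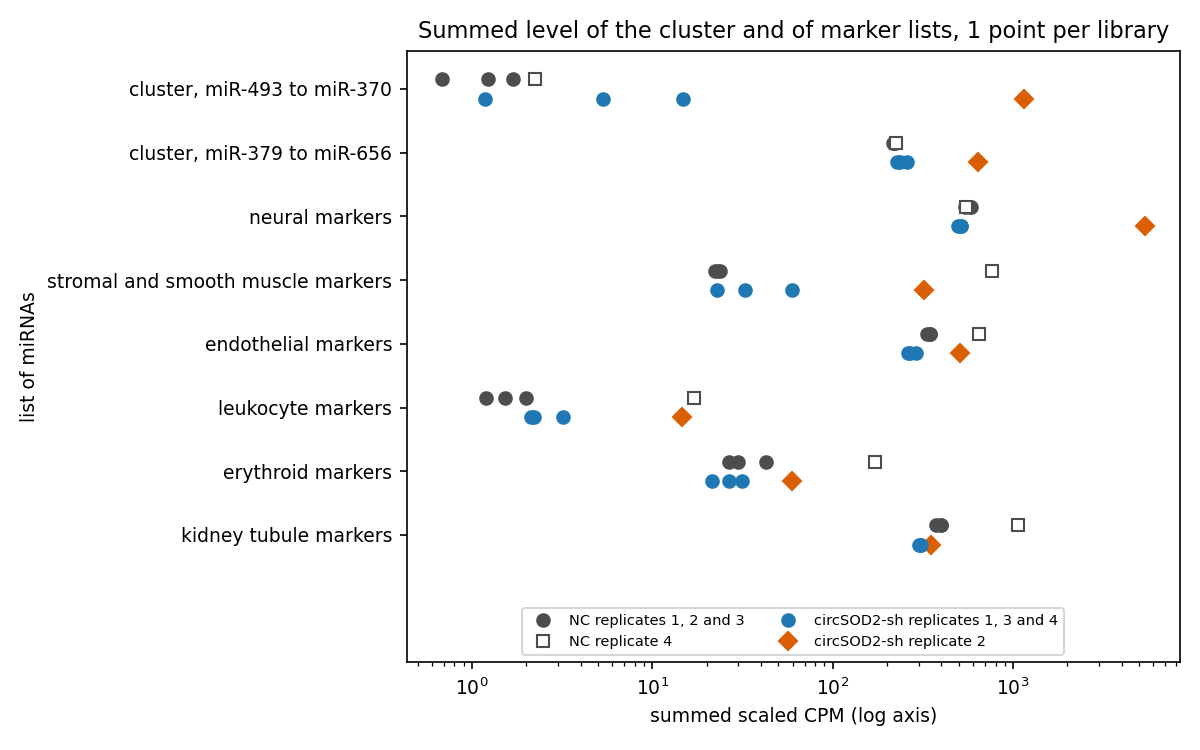
Summed scaled CPM (horizontal, log axis) of the 2 blocks of the cluster and of 6 marker lists (vertical), with 1 point per library. circSOD2-sh replicate 2 (diamond) is at 1151 for the upstream block and 5362 for the neural list, apart from the other 7 libraries, while NC replicate 4 (open square) is apart from the other NC libraries for the 5 lists below the neural one and not for the downstream block of the cluster.

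Outside the cluster, other miRNAs of the same chromosome arm did not follow one direction. Of 8 entries of chromosome 14q32 that lie outside the rule, 4 were tested, 2 were higher and 1 lower in circSOD2-sh by edgeR, and without replicate 2 these numbers were 2 and 2. The lower ones were miR-151b and, without replicate 2, miR-203a-3p. The 2 higher, named after their values were seen, were miR-342-3p, with 71, 64, 75 and 34 counts in NC and 2211, 3738, 2285 and 2418 in circSOD2-sh, and miR-345-5p, with 4, 3, 3 and 3 counts in NC and 394, 369, 277 and 390 in circSOD2-sh. Of 10 entries from imprinted regions elsewhere, 4 were tested, 1 was higher, miR-483-3p of the IGF2 gene (log2 fold change 2.71, SE 0.27, adjusted p = 9.96e-06, edgeR), and 1 lower, miR-296-3p of the GNAS region (−1.03, SE 0.22, adjusted p = 0.00202, edgeR), with the same counts of calls without replicate 2. Named after its values were seen, miR-335-5p of the imprinted MEST gene was at 134.4 scaled CPM in replicate 2, with 0.679 to 4.81 in replicates 1, 3 and 4, and had a log2 fold change of 3.46 (SE 1.63, adjusted p = 0.0865, edgeR), or −0.44 (adjusted p = 0.717, edgeR) without replicate 2. Its other arm miR-335-3p, which was not tested, was at 12.3 scaled CPM in replicate 2 and 0.509 to 1.40 in those libraries.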

How the data were processed

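A service company sequenced small RNA for the authors from 4 NC and 4 circSOD2-sh libraries of 786O cells, grouped by title. The submitters' processing notes name FastQC 0.11.2, Trimmomatic 0.36, Bowtie 1.1.1 and GRCh38; their settings are not given in the sources used here. The deposited table holds raw read counts per mature miRNA, and the authors' second table holds CPM, counts over 1 total per library of which the listed entries are 83.7 to 93.9%; it served only an alternative. Another table holds the authors' own comparison (fold changes and p-values) and was not used. Known miRNAs were all entries other than those named as predicted.

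Counts were tested with edgeR 4.0.16 (R 4.3.3): TMM, filterByExpr with a minimum count of 10, quasi-likelihood test of group, Benjamini-Hochberg over all miRNAs tested, threshold 0.05. The fit was run with all 8 libraries and without circSOD2-sh replicate 2, and the script was tested on simulated data. Log2 fold changes used a prior count of 0.125. Levels are counts over the TMM-scaled library size. Alternatives were DESeq2 1.42.0, RLE, upper-quartile and total scaling, known miRNAs only, 2 filters, limma 3.58.1 on log2(CPM + 1) and log2(CPM + 0.1), a replicate block and leaving out libraries. Members and lists were chosen with earlier results of these data known. Named members were the 15 with the highest mean level, those called in either fit, up to 10 with the largest ratio of circSOD2-sh replicate 2 to the highest other circSOD2-sh library, and their other arms. Ratio intervals are exact (Clopper-Pearson, SciPy 1.17.1). Hairpins are from GENCODE 29 and mature sequences from RefSeq GRCh38.p14. Within each group the counts of every pair of libraries differed by more than sampling noise, so each library counted once.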

Additional observations from a re-analysis of the deposited data

Results flagged for a closer look

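Within groups of 4 libraries, 98 sets of values (46 named members and 3 sums, in each group) were searched for 1 library far from the other 3. Such a library was found in 30 sets. Chance flags about 1 in 20 groups, but the number found cannot be set against that share: up to 10 members were named for the ratio of circSOD2-sh replicate 2 to the others, a set with counts in 1 library always meets the criterion, and the sets are not independent. circSOD2-sh replicate 2 was that library 23 times, always as the highest.

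The summed level of all members in that library was 1786 scaled CPM where replicates 1, 3 and 4 had 228 to 273, that of the upstream block (miR-493 to miR-370) 1151 against 1.19 to 14.8, and that of the downstream block (miR-379 to miR-656) 635 against 227 to 258. Upstream members apart in it were miR-127-3p (934 scaled CPM), miR-127-5p (7.06), miR-136-3p (140.6), miR-136-5p (10.05), miR-370-3p (33.9), miR-433-3p (13.2) and miR-433-5p (1.24). Downstream members apart in it were miR-409-5p (110.2), miR-495-3p (59.1), miR-381-3p (33.9), miR-411-3p (21.5), miR-380-3p (16.9), miR-487b-3p (15.7), miR-369-5p (15.2), miR-668-3p (12.5), miR-376c-5p (11.8) and miR-376b-5p (11.6). miR-134-3p (0.529), miR-380-5p (0.353) and miR-656-5p (0.176) stood apart in it on 3, 2 and 1 counts.

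The other sets rest on few counts. NC replicate 4 was highest for miR-329-3p (0.449) and miR-380-5p (0.449), on 2 counts each. NC replicate 1 was highest for miR-494-5p (0.613, 4 counts), NC replicate 2 for miR-329-5p (0.154, 1 count) and circSOD2-sh replicate 3 for miR-487b-5p (0.401, 2 counts). NC replicate 3 was highest for miR-409-5p (3.07 against 2.0 to 2.15, 18 counts) and lowest for miR-370-3p (0.170 against 0.449 to 0.461, 1 count).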

How the results depend on the processing

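Of the 8 members called by edgeR with all libraries, miR-409-5p, miR-329-3p and miR-380-3p were called under every alternative that gave them an adjusted p. DESeq2 with all libraries gave none for miR-380-3p, so it was not called there. Without circSOD2-sh replicate 2, DESeq2 called it (adjusted p = 0.00549). The number of members called, which were not always among these 8, was 4 with DESeq2, 4 with a mean of at least 50 counts (11 tested), 26 with library totals, 26 with upper-quartile scaling, 18 without the low-count filter (81 tested), 18 and 19 with limma on CPM plus 1 and plus 0.1, and 4 to 8 with 1 library left out, lowest without NC replicate 3. Of the 8, DESeq2 called miR-409-5p and miR-329-3p alone. It gave miR-134-5p, miR-539-3p, miR-543, miR-654-3p and miR-656-3p an adjusted p of 0.06 to 0.121. It also called miR-379-5p (adjusted p = 0.028), which edgeR did not call. Its remaining call, also higher in circSOD2-sh, was a member outside the named ones and was not called by edgeR either. Without circSOD2-sh replicate 2, 8 were called, and the number was 5 with DESeq2, 2 with a mean of at least 50 counts (8 tested), 22 with library totals, 21 with upper-quartile scaling, 19 and 18 with limma, and 4 to 8 with another library left out, lowest without circSOD2-sh replicate 4. Of these, 0 were lower with library totals, upper-quartile scaling, limma, known miRNAs only or no filter. The cause of these differences was not tested, apart from the fewer members tested under the stricter filter.

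With the replicate number as a block, 4 members were called with all libraries and 5 without circSOD2-sh replicate 2. Same-numbered libraries deviated with correlations of 0.224, −0.065, 0.0851 and −0.150, so the replicate block pairs libraries by number alone.

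The NC sum of 221.5 scaled CPM was 225.5 with RLE, 165.6 with upper-quartile scaling, 158.5 with library totals, 358.3 with known miRNAs only, 230.6 without circSOD2-sh replicate 2 and NC replicate 4, and 217.3 to 238.8 with 1 library left out. In the first 4 of these settings the circSOD2-sh sum of 632 was 604.2, 804.2, 864.0 and 1026. It was 227.4 without replicate 2 with TMM refitted on the other libraries, where the 248 given above keeps the scaling of all 8.

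With 1 library left out, log2 fold changes that changed sign ranged from −0.14 to 0.96 for miR-369-3p, −0.14 to 0.35 for miR-376c-3p, −0.22 to 0.42 for miR-379-3p, −0.66 to 1.27 for miR-381-3p, −0.21 to 0.24 for miR-409-3p, −0.27 to 0.86 for miR-411-5p, −0.50 to 0.45 for miR-411-3p, −0.74 to 0.54 for miR-487b-3p, −0.13 to 0.080 for miR-494-3p, −0.019 to 1.04 for miR-495-3p and −0.21 to 0.023 for miR-758-3p. Leaving out circSOD2-sh replicate 2 gave the lowest of these, except for miR-494-3p and miR-758-3p, which were lowest without circSOD2-sh replicate 3. With NC replicate 4 left out beside circSOD2-sh replicate 2 they were −0.26 for miR-369-3p, −0.20 for miR-379-3p, −0.45 for miR-381-3p, −0.25 for miR-409-3p, −0.31 for miR-411-5p, −0.45 for miR-411-3p, −0.77 for miR-487b-3p, −0.17 for miR-494-3p and −0.12 for miR-495-3p. With library totals, upper-quartile scaling, limma plus 1 and limma plus 0.1, miR-323a-3p turned to 0.67, 0.54, 0.44 and 0.48, miR-758-3p to 0.96, 0.84, 0.77 and 0.81, and miR-889-3p to 0.75, 0.63, 0.57 and 0.60. miR-758-3p was 0.033 with known miRNAs only and 0.028 with a mean of at least 50 counts, and miR-494-3p was −0.011 with DESeq2 and −0.0088 with RLE. These lists cover the named members only. miR-382-5p, miR-382-3p and miR-1197, tested but not named, also turned negative without circSOD2-sh replicate 2, at −0.32, −0.36 and −0.060.

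Depth limits the upstream block most: no upstream member reached 10 counts in an NC library, and decreases there were not detectable.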
